A study of Homo sapiens with 6 samples.

Results

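Collagen alpha chains are read here in 253J cells, an established human bladder cancer cell line, as the protein-coding genes whose symbol is COL, a number, A and a number. They number 44 of the 60483 gene IDs listed, with 11 fibrillar, 6 basement membrane and 27 other collagens. The data are RNA-seq counts of 6 libraries, 3 of cells given control siRNA (control 1, 2 and 3) and 3 of cells given siRNA against FTO (siFTO 4, 5 and 6), all grown in RPMI-1640 with fetal bovine serum. FTO is a demethylase of N6-methyladenosine in RNA, and the design asks how transcripts differ after its knockdown. The sample labels name siRNA, whereas the methods of the study describe short hairpin RNA. Whether the replicates were independent cultures is stated in neither, so the spread behind each p-value is that of these 6 samples and may be technical.

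Collagens are built from 3 alpha chains wound into a triple helix, which needs a glycine at the start of each Gly-X-Y repeat. Fibrillar collagens pack side by side into the fibrils of connective tissue, and type IV collagen forms the sheet-like network of basement membranes. The other types form filaments, anchoring fibrils and short-chain networks, sit on fibril surfaces or span the cell membrane. Fibroblasts are the main source of interstitial collagen in most organs, and epithelial cells make basement membrane and hemidesmosomal collagens such as type XVII.

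Total counts ran from 10991789 to 19891269 per library, so that a floor of 3 counts stood at 0.151 to 0.273 CPM (counts scaled to a library total of 1000000), a limit that covers counting error only. FTO stood at 31.8, 21.4 and 31.3 CPM in control 1, 2 and 3 when library sizes were scaled by TMM, and at 19.9, 20.5 and 15.7 CPM in siFTO 4, 5 and 6. On library totals it stood at 31.1, 19.8 and 30.3 CPM in the controls and at 21.0, 21.2 and 16.4 CPM in siFTO 4, 5 and 6. FTO thus overlapped between the groups on that scale, with control 2 below siFTO 4 and 5. Its log2 fold change was -0.59 ± 0.17 (SE, n = 3 per group, adjusted p = 0.0385 in edgeR), and it did not pass without control 1, control 3, siFTO 4 or siFTO 5 (adjusted p of 0.120, 0.112, 0.0982 and 0.0732) on library totals alone (0.0933) or in limma voom (0.0630). Pairs of replicates differed by more than counting noise, with a chi-square per degree of freedom of 3.80 to 25.4. Among 10 epithelial markers, KRT8, KRT18, KRT19, EPCAM, CDH1, CLDN4 and CLDN7 stood at 67.1 CPM or more in all 6 libraries. ESRP1 stood at 5.67 to 12.1 CPM, GRHL2 at 1.15 to 2.66 CPM and KRT7 at 0.637 to 1.79 CPM. Of 10 markers of urothelium, the bladder lining, PPARG, FOXA1 and KRT13 passed 1 CPM in every library, whereas the uroplakin genes UPK1A, UPK1B, UPK2 and UPK3A stayed at or below 0.573 CPM and TP63 at or below 0.0910 CPM.

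Collagen transcripts were far more abundant in siFTO 4 and 5 than in the other 4 libraries, and most of this lay in fibrillar collagens and in types VI and VII. All collagen genes together took 478, 472 and 452 CPM on library totals in control 1, 2 and 3, and 1413, 1760 and 516 CPM in siFTO 4, 5 and 6. The number of members that reached 1 CPM was 17, 16 and 16 in the controls and 25, 25 and 18 in siFTO 4, 5 and 6. A split of the siFTO libraries into 4 and 5 against 6 is in no label, so it is described here and given no test. In bulk samples, a change in the number of cells of a type and a change in RNA per cell cannot be told apart.

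The 3 classes are given in turn as sums. Fibrillar collagens summed to 43.0, 42.8 and 37.9 CPM in control 1, 2 and 3 and to 390, 491 and 56.5 CPM in siFTO 4, 5 and 6. Their share of all collagen CPM was 27.6% and 27.9% in siFTO 4 and 5 against 8.38% to 10.9% in the other 4 libraries. The lower of siFTO 4 and 5 exceeded the highest other library by 2.79 on the log2 scale of summed CPM. Basement membrane collagens summed to 25.3, 20.3 and 24.4 CPM in the controls and to 22.4, 26.5 and 18.6 CPM in siFTO 4, 5 and 6, so that the libraries overlapped. Other collagens summed to 410, 409 and 390 CPM in the controls and to 1000, 1243 and 441 CPM in siFTO 4, 5 and 6. Without COL6A1, which gave most of that sum in the controls, they summed to 129 to 145 CPM in the controls and to 642, 819 and 151 CPM in siFTO 4, 5 and 6. The class boundary bears on these sums. With COL7A1, COL15A1 and COL18A1, which also occur at basement membranes, moved to the type IV class, the log2 gap of that class changed from -0.17 to 1.86.

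**Figure D1:**
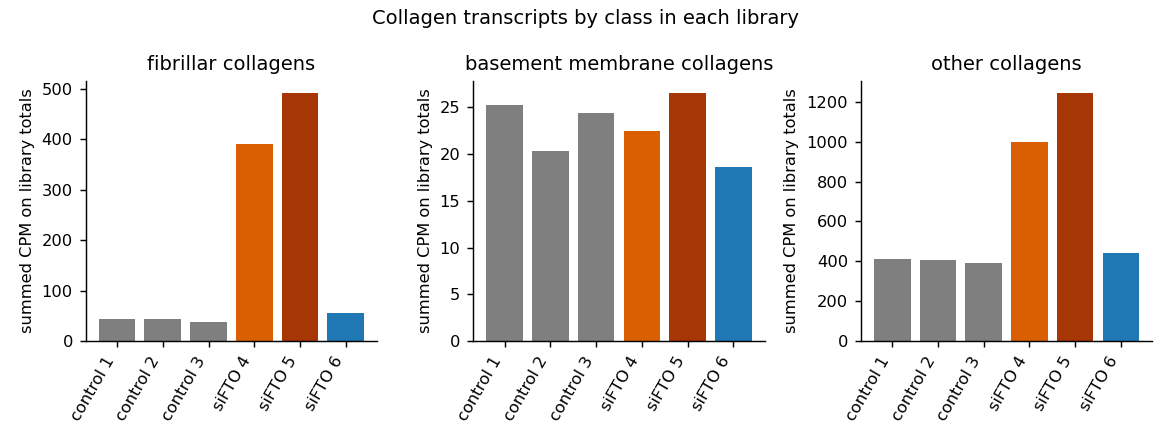
Summed CPM on library totals of fibrillar, basement membrane and other collagens in each of the 6 libraries, with 1 bar per library and axes from 0 that differ between panels. Fibrillar sums stand at 390 and 491 CPM in siFTO 4 and 5 and at 37.9 to 56.5 CPM elsewhere, and basement membrane sums lie between 18.6 and 26.5 CPM in all libraries.

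Of the 44 members, 33 had at least 10 counts summed over the 6 libraries and were tested in the fit on 20677 genes. By the label comparison, 13 of the 33 were higher in siFTO (39.4%, against 14.1% of all genes tested) and 2 were lower (6.06%, against 11.5%), with 18 not passing, by edgeR's quasi-likelihood test with Benjamini-Hochberg adjustment. Of the 13, COL1A2, COL4A5, COL4A6, COL6A2, COL8A1, COL12A1 and COL15A1 reached the minimum of 10 counts only with the counts of siFTO 4 and 5. The share of 39.4% thus rests in part on the libraries where these genes were high. With filterByExpr, which leaves them out, 6 of 19 members tested were higher, against 2913 of 14965 genes. Fold changes were fitted on TMM-scaled library sizes, whereas the CPM given by library are on library totals. The median log2 fold change was 0.46 over the members tested and 0.03 over all genes tested. Fibrillar collagens had 4 of 8 tested higher and 0 lower (5 higher and 0 lower at an unadjusted p under 0.05, and likewise 4 and 0 in DESeq2 and 0 and 0 in limma voom), with a median of 1.16. Basement membrane collagens had 2 of 6 higher and 1 lower, with a median of 0.37. Other collagens had 7 of 19 higher and 1 lower, with a median of 0.39.

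The number of calls moved with single libraries, over all genes as well as over the members. Without siFTO 4, 0 members were called in either direction (13 higher and 2 lower at an unadjusted p), and all genes called fell from 2919 higher and 2372 lower to 645 and 662. Without siFTO 5 there were 5 members higher and 1 lower, and 1369 and 1225 of all genes. Without control 1, 2 or 3 there were 1, 0 and 2 members higher (15, 13 and 13 at an unadjusted p), and 1165, 1364 and 1520 of all genes. Without siFTO 6 there were 16 members higher, with COL5A3, COL6A1 and COL27A1 added, and 4088 of all genes. DESeq2 called 11 higher and limma voom 0 (6 at an unadjusted p). On library totals alone, 15 members were higher and 1 lower, and 73.1% of the calls over all genes were higher, against 55.2% with TMM scaling.

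Both siFTO 4 and siFTO 5 exceeded each of the other 4 libraries in 17 of the 33 members tested (51.5%), against 22.3% of all genes tested. At a gap of at least 4-fold on the scale of CPM + 0.1, the members numbered 11 (33.3%), against 4.24% of all genes tested. These 11 were COL1A1, COL1A2, COL4A5, COL4A6, COL5A1, COL6A2, COL6A3, COL7A1, COL8A1, COL12A1 and COL15A1. Of the 33, 9 had fewer than 10 counts over the other 4 libraries, so that these 9 passed the minimum only with the counts of siFTO 4 and 5. Among the 24 members with at least 10 counts over the other 4 libraries, 10 were above (41.7%, against 18.3% of 18385 such genes) and 4 were at least 4-fold above (16.7%, against 1.07%). On library totals, every siFTO library was above every control in 8 members (24.2%), against 28.4% of all genes tested, and every siFTO library was below every control in 1 (3.03%), against 14.8%. These counts depend on the scale. TMM factors were 0.924 to 0.977 in the controls and 1.035 to 1.059 in the siFTO libraries, so TMM scaling lowers siFTO values against controls.

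**Figure D2:**
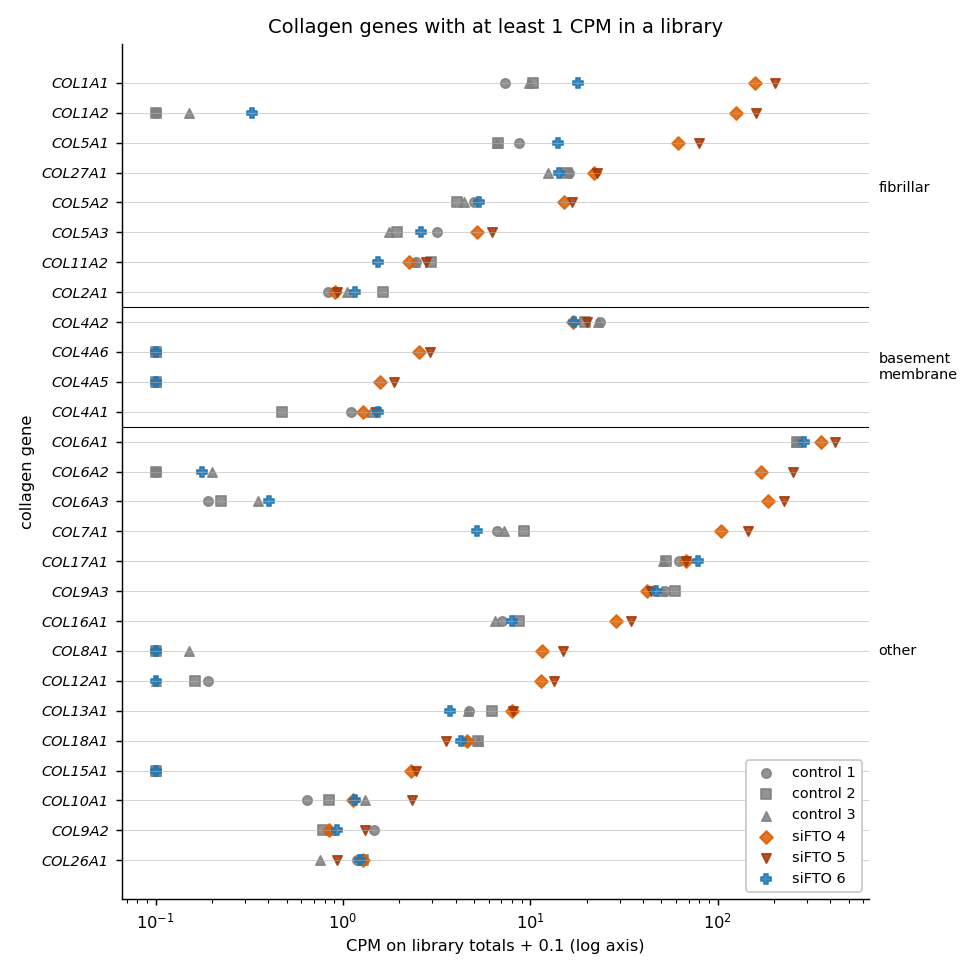
CPM on library totals plus 0.1 (log axis) of the 27 collagen genes with at least 1 CPM in a library, by class, with 1 symbol per library. Orange and brown symbols (siFTO 4 and 5) stand to the right of the others for genes such as COL1A2, COL6A2 and COL7A1, and together with them for COL9A3, COL17A1 and COL4A2.

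Type I collagen, the main collagen of skin, bone and most stroma, is made of chains from COL1A1 (chr17:50183289-50201632, minus strand) and COL1A2 (chr7:94394561-94431232, plus strand). COL1A1 stood at 7.28, 10.2 and 9.70 CPM in control 1, 2 and 3 and at 158, 202 and 17.8 CPM in siFTO 4, 5 and 6. Every siFTO library lay above every control, with siFTO 6 far closer to the controls than to siFTO 4 and 5. Its log2 fold change was 3.65 ± 0.75 (SE, n = 3 per group, adjusted p = 0.0130 in edgeR). COL1A2 had 0, 0 and 1 counts in the controls and 1706, 2515 and 3 counts in siFTO 4, 5 and 6, or 126, 160 and 0.228 CPM for the last 3 (adjusted p = 0.0146 in edgeR). The partner chain was thus near or below the floor of 3 counts in the 4 libraries that held COL1A1 at 7.28 to 17.8 CPM. Per kb of exon, COL1A1 stood at 1.42 and 1.43 times COL1A2 in siFTO 4 and 5, and per kb of the transcript with the longest coding sequence at 1.01 and 1.02 times.

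The repeat that defines the family can be read in both genes. One coding exon of each, the eighth, is shown because the chains share its length of 54 bases and because only siFTO 4 and 5 held both transcripts in quantity. They lie at chr17:50197949-50198002 (minus strand) and chr7:94404693-94404746 (plus strand) in GENCODE 29 on GRCh38. Capitals mark the glycine codons, GGN, of which each exon has 6 among 18 codons.
COL1A1: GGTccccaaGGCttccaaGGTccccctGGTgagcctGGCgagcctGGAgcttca
COL1A2: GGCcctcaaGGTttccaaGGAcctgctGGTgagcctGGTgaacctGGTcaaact
Exons of 54 bases made up 305 of 649 coding exons (47.0%) in the 11 fibrillar genes, 12 of 297 (4.04%) in the 6 basement membrane genes and 157 of 1058 (14.8%) in the other 27. Among all other protein-coding genes they were 827 of 195663 (0.423%). Coding exons whose length is a multiple of 9, the length of 1 repeat of glycine and any 2 residues, were 82.9%, 46.5% and 53.5% in the 3 classes and 13.8% elsewhere.

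Type V collagen starts and limits the width of type I fibrils. COL5A1, its first chain, stood at 8.64, 6.61 and 6.54 CPM in control 1, 2 and 3 and at 61.3, 79.9 and 13.98 CPM in siFTO 4, 5 and 6. As with COL1A1, all siFTO libraries exceeded all controls and siFTO 6 lay nearest to them (log2 fold change 2.72 ± 0.55, adjusted p = 0.0121 in edgeR). COL5A2 stood at 4.91, 3.96 and 4.32 CPM in the controls and at 15.0, 16.7 and 5.24 CPM in siFTO 4, 5 and 6, and siFTO 6 lay close to control 1 (1.36 ± 0.38, adjusted p = 0.0351). COL5A3 stood at 3.09, 1.85 and 1.66 CPM in the controls and at 5.09, 6.17 and 2.51 CPM in siFTO 4, 5 and 6, and its log2 fold change of 0.96 ± 0.38 did not pass (adjusted p = 0.0979), although it did with no filter (0.0384), with filterByExpr (0.0455), with at least 10 counts in every library (0.0358) and without siFTO 6 (4.54e-04). Groups overlapped for COL5A3, since siFTO 6 lay below control 1. Per kb of exon, COL5A1 was 1.17, 1.11 and 1.01 times COL5A2 in the controls and 2.73, 3.19 and 1.78 times in siFTO 4, 5 and 6.

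Other fibrillar collagens followed by a small gap or not at all. COL27A1, a fibrillar chain best known from cartilage, stood at 16.0, 15.7 and 12.3 CPM in the controls and at 21.9, 22.7 and 14.1 CPM in siFTO 4, 5 and 6, and did not pass (log2 fold change 0.29 ± 0.20, adjusted p = 0.308 in edgeR), although it did without siFTO 6. For COL27A1, the lower of siFTO 4 and 5 exceeded the highest other library by 0.45 on the log2 scale of CPM + 0.1. COL11A2, a type XI chain, stood at 2.37, 2.84 and 2.31 CPM in the controls and at 2.14, 2.67 and 1.44 CPM in siFTO 4, 5 and 6. The cartilage collagen COL2A1 stood at 0.728, 1.55 and 0.955 CPM in the controls and at 0.812, 0.828 and 1.06 CPM in siFTO 4, 5 and 6. Neither COL11A2 (adjusted p = 0.358) nor COL2A1 (adjusted p = 0.464) passed in edgeR, and their libraries overlapped. COL3A1, the chain of type III collagen that accompanies type I in most soft tissue, had 0, 0 and 0 counts in the controls and 2, 1 and 0 in siFTO 4, 5 and 6. It was chosen for mention after its values were seen. A rise of COL3A1 was therefore not detectable at this depth in the 2 libraries that held both type I chains in quantity.

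Type VI collagen, a beaded filament next to cells and basement membranes, needs chains from COL6A1, COL6A2 and COL6A3 together. COL6A1 was abundant everywhere, at 268, 264 and 261 CPM in control 1, 2 and 3 and at 358, 424 and 290 CPM in siFTO 4, 5 and 6. On library totals its siFTO libraries all lay above its controls, but with TMM scaling siFTO 6 overlaps them. The log2 fold change of COL6A1, 0.31 ± 0.13, did not pass (adjusted p = 0.120 in edgeR). It did pass on library totals alone, with no filter, without siFTO 6 and in DESeq2. COL6A2 had 0, 0 and 2 counts in the controls and 2323, 3991 and 1 counts in siFTO 4, 5 and 6, or 171.5, 254 and 0.0760 CPM for the last 3 (adjusted p = 0.0156 in edgeR). COL6A3 had 1, 2 and 5 counts in the controls and 2530, 3543 and 4 counts in siFTO 4, 5 and 6, or 187, 225.5 and 0.304 CPM for the last 3 (log2 fold change 9.47 ± 2.04, adjusted p = 0.0152). COL6A1 and COL6A2 are neighbours on chromosome 21, yet only COL6A1 had more than 2 counts in the controls and siFTO 6. Per kb of exon, COL6A1 was 2.11 and 1.68 times COL6A2 and 7.05 and 6.90 times COL6A3 in siFTO 4 and 5, against 3819 times COL6A3 in control 3 and 3505 times in siFTO 6.

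The 250 bases before the RefSeq start of COL6A2 and COL6A3 (GRCh38.p14) are shown because these chains were near 0 in 4 libraries and abundant in the other 2. They lie at chr21:46097862-46098111 (plus strand) and chr2:237414165-237414414 (minus strand). Capitals mark the TATA box (TATAAA), the CCAAT box (CCAAT) and the GC box (GGGCGG), each searched on both strands with no overlap among the matches shown.
COL6A2: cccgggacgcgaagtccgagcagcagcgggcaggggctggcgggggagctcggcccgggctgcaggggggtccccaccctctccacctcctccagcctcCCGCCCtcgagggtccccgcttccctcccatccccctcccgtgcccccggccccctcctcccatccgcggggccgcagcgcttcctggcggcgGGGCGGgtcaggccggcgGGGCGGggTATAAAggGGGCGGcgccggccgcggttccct
COL6A3: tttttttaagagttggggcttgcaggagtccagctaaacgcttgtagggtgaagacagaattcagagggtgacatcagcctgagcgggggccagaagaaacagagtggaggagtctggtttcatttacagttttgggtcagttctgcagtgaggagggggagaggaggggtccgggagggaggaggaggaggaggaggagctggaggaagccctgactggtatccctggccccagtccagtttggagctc
COL6A2 held 1 TATA box and 4 GC boxes in this window, and COL6A3 none of the 3 motifs. Among 27305 promoters of this length, 11.1% held TATAAA, 33% CCAAT and 42.3% GGGCGG. A match is a description of the letters, and 32 of the 44 members had an entry in this table.

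**Figure D3:**
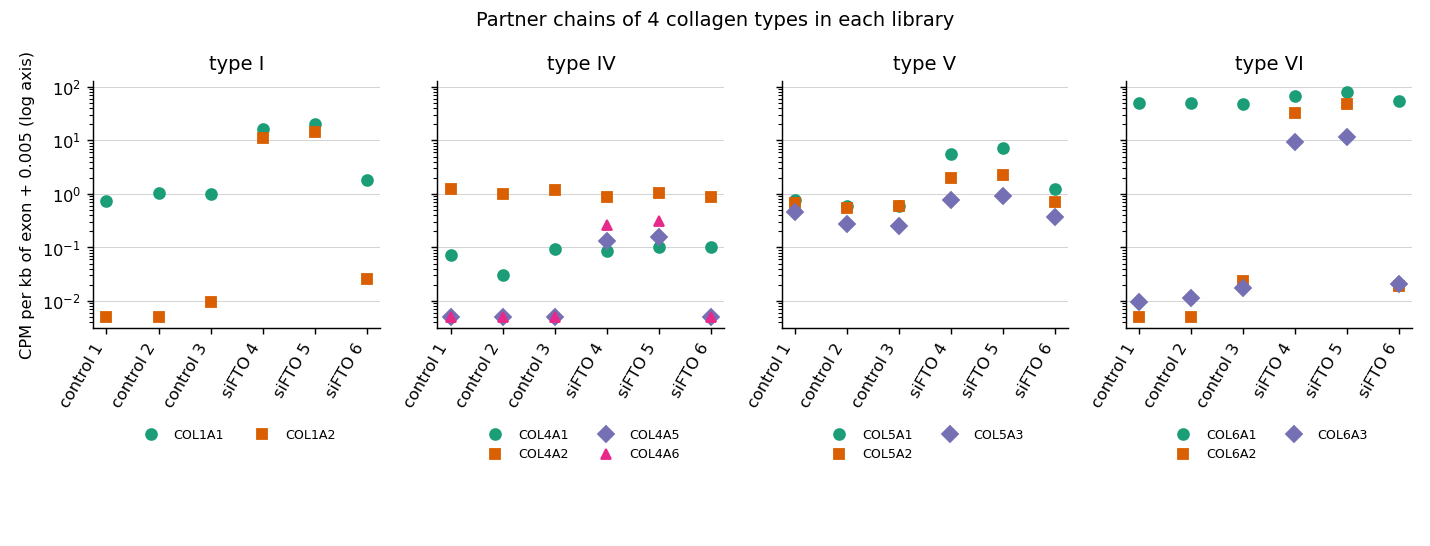
CPM per kb of exon plus 0.005 (log axis) of the chains of types I, IV, V and VI in each library, with 1 symbol per chain. In siFTO 4 and 5 COL1A1 and COL1A2 come close to each other and COL6A1 stays 6.90 to 7.05 times above COL6A3, whereas COL1A2, COL6A2 and COL6A3 lie near the bottom of the axis in the other 4 libraries.

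Type IV genes sit in head-to-head pairs that are read from 1 shared stretch of DNA, and they are given pair by pair. COL4A2 (chr13:110305812-110513209, plus strand) stood at 23.5, 19.5 and 22.8 CPM in control 1, 2 and 3 and at 16.9, 19.9 and 16.9 CPM in siFTO 4, 5 and 6. It was lower in siFTO (log2 fold change -0.41 ± 0.11, adjusted p = 0.0317 in edgeR), though siFTO 5 lay above control 2 on library totals. Among fits with more than 1 siFTO library, COL4A2 did not pass on library totals alone or without control 1, control 3 or siFTO 4 (adjusted p of at most 0.110). Without siFTO 4 and 5, which leaves 1 siFTO library, its log2 fold change was -0.48. COL4A1, its partner in the most common type IV trimer, stood at 1.001, 0.371 and 1.31 CPM in the controls and at 1.18, 1.40 and 1.44 CPM in siFTO 4, 5 and 6 (0.46 ± 0.43, adjusted p = 0.466). Per kb of exon, COL4A2 stood at 17.9, 40.1 and 13.3 times COL4A1 in the controls and at 10.9, 10.9 and 8.97 times in siFTO 4, 5 and 6. COL4A1 had 6 to 26 counts in a library, so these ratios are loose. The annotated genes overlap on opposite strands, and without a stated strand setting reads of the overlap cannot be told apart.

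The X-linked pair was absent outside siFTO 4 and 5. COL4A6 had 0 counts in control 1, 2 and 3 and 33, 44 and 0 counts in siFTO 4, 5 and 6 (adjusted p = 0.0435 in edgeR). COL4A5, whose loss causes Alport syndrome, had 0 counts in the controls and 20, 28 and 0 in siFTO 4, 5 and 6 (adjusted p = 0.0488). Neither was called in DESeq2, nor in any fit without control 1, 2 or 3 or siFTO 4 or 5. Per kb of exon, COL4A6 was 2.11 and 2.01 times COL4A5 in siFTO 4 and 5. The third pair, COL4A3 and COL4A4, had at most 9 counts in a library and did not pass.

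Sequence between the starts is shown for the first and the X-linked pair because 1 was read in all libraries and the other in 2. The RefSeq starts (GRCh38.p14) of COL4A1 and COL4A2 are 127 bases apart, those of COL4A6 and COL4A5 380 and those of COL4A4 and COL4A3 419. The stretches lie at chr13:110307158-110307283 (all 126 bases between the starts) and chrX:108439588-108439837 (250 of the 379 between them), both written on the plus strand, with capitals for the CCAAT and GC boxes on either strand.
COL4A1-COL4A2: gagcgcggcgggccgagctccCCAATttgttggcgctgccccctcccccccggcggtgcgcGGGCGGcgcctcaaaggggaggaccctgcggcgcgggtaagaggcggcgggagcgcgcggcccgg
COL4A6-COL4A5: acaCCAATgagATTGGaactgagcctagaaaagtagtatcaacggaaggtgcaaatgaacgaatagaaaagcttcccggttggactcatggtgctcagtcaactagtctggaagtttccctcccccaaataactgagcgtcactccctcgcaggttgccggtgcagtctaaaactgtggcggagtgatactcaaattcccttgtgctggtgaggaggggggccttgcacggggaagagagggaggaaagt
The first holds 1 CCAAT and 1 GGGCGG, and the second 2 CCAAT and neither GGGCGG nor TATAAA. In windows of 126 bases, the length of the first, 21.9% of promoters held CCAAT, 34.6% GGGCGG and 6.23% TATAAA. In windows of 250 bases, the length of the second, these shares were 33%, 42.3% and 11.1%.

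COL7A1 encodes type VII collagen, the anchoring fibril that ties epithelium to the tissue below. It stood at 6.55, 9.15 and 7.14 CPM in control 1, 2 and 3 and at 104, 146 and 5.09 CPM in siFTO 4, 5 and 6. While siFTO 4 and 5 were high, siFTO 6 was the lowest of all 6 libraries. The log2 fold change was 3.35 ± 0.92 (adjusted p = 0.0325 in edgeR), and without siFTO 4 and 5 it was -0.70 (adjusted p = 0.123). COL17A1, the transmembrane collagen of hemidesmosomes, stood at 62.5, 53.0 and 50.9 CPM in the controls and at 68.0, 67.8 and 78.8 CPM in siFTO 4, 5 and 6. Here siFTO 6 was the highest, all siFTO libraries exceeded all controls, and the change of 0.24 ± 0.10 did not pass (adjusted p = 0.120), although it did on library totals alone. COL13A1, another transmembrane collagen, stood at 4.64, 6.18 and 4.58 CPM in the controls and at 7.90, 8.02 and 3.65 CPM in siFTO 4, 5 and 6, and did not pass (adjusted p = 0.658).

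Members of the short-chain networks and of fibril surfaces followed in part. COL8A1, a short-chain collagen of vessel walls and the cornea, had 0, 0 and 1 counts in the controls and 156, 234 and 0 counts in siFTO 4, 5 and 6 (adjusted p = 0.0196 in edgeR). COL12A1, which lies on the surface of type I fibrils, had 1, 1 and 0 counts in the controls and 154, 208 and 0 in siFTO 4, 5 and 6 (adjusted p = 0.0217). Both had no count in siFTO 6. COL16A1, a fibril-associated collagen, stood at 7.01, 8.65 and 6.39 CPM in the controls and at 28.5, 34.3 and 7.90 CPM in siFTO 4, 5 and 6 (log2 fold change 1.55 ± 0.46, adjusted p = 0.0406), with siFTO 6 among the controls. COL10A1, the short-chain collagen of hypertrophic cartilage, stood at 0.546, 0.742 and 1.21 CPM in the controls and at 1.03, 2.23 and 1.06 CPM in siFTO 4, 5 and 6. It did not pass (adjusted p = 0.320) and overlaps NT5DC1, which had up to 1039 counts, on the opposite strand.

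Type IX collagen decorates cartilage fibrils. On library totals, its COL9A3 chain was the only member tested with every siFTO library below every control, and TMM scaling can add others. COL9A3 stood at 52.3, 58.8 and 50.6 CPM in control 1, 2 and 3 and at 41.7, 43.8 and 46.6 CPM in siFTO 4, 5 and 6 (log2 fold change -0.42 ± 0.10, adjusted p = 0.0215 in edgeR). It did not pass without siFTO 4, siFTO 5 or both (adjusted p of at most 0.223 over all alternatives). TCFL5, on the opposite strand, overlaps it and had up to 1058 counts. Its partner COL9A2 stood at 1.37, 0.680 and 0.754 CPM in the controls and at 0.738, 1.21 and 0.836 CPM in siFTO 4, 5 and 6 (adjusted p = 0.895), and COL9A1 had 0 counts everywhere.

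The multiplexins are collagens of basement membrane zones that carry sugar chains. COL15A1 had 0 counts in the controls and 30, 37 and 0 counts in siFTO 4, 5 and 6 (adjusted p = 0.0446 in edgeR), and it was lost in DESeq2 and without control 1, 2 or 3 or siFTO 4 or 5. COL18A1, the source of endostatin, went the other way in its values, at 4.46, 5.19 and 5.18 CPM in the controls and 4.50, 3.44 and 4.18 CPM in siFTO 4, 5 and 6, and did not pass (-0.43 ± 0.20, adjusted p = 0.154). COL18A1 overlaps SLC19A1, which had up to 853 counts, on the opposite strand. COL26A1 stood at 1.09, 1.17 and 0.654 CPM in the controls and at 1.18, 0.828 and 1.14 CPM in siFTO 4, 5 and 6 (adjusted p = 0.987). The other 17 members never reached 1 CPM, and 4 of them, COL6A5, COL9A1, COL22A1 and COL25A1, had 0 counts in all libraries, which allows up to 0.273 CPM in the shallowest.

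Among the high members, siFTO 5 exceeded siFTO 4 throughout. The ratio of siFTO 5 to siFTO 4 in CPM was 1.06 to 1.48 over the 11 members that stood at least 4-fold above the other libraries, with a median of 1.27. All 599 genes with that gap and at least 20 counts in both libraries had a median ratio of 1.19 with quartiles of 1.06 and 1.34, and 501 were above 1. Another 13104 genes without the gap had a median of 0.983. The collagen genes thus differed between siFTO 4 and 5 in the same direction as most genes high in both.

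With siFTO 4 and 5 left out, siFTO 6 was compared with the 3 controls, on the assumption that siFTO 6 varies as the controls do. Of 24 members tested, 2 were higher and 0 lower in edgeR (8.33% higher, and 3 and 3 at an unadjusted p under 0.05), against 5.04% higher and 4.28% lower of 18385 genes tested in this fit. The share of members called was thus near that of all genes. COL5A1 was higher by 0.85 ± 0.22 on the log2 scale (adjusted p = 0.0254) and COL1A1 by 0.84 ± 0.22 (adjusted p = 0.0267). Both were thus raised in each of the 3 siFTO libraries, to a smaller extent in siFTO 6. COL6A1 differed by 0.02 ± 0.14 (adjusted p = 0.944), COL5A2 by 0.15 ± 0.27 (0.761) and COL16A1 by -0.01 ± 0.25 (0.988).

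**Figure D4:**
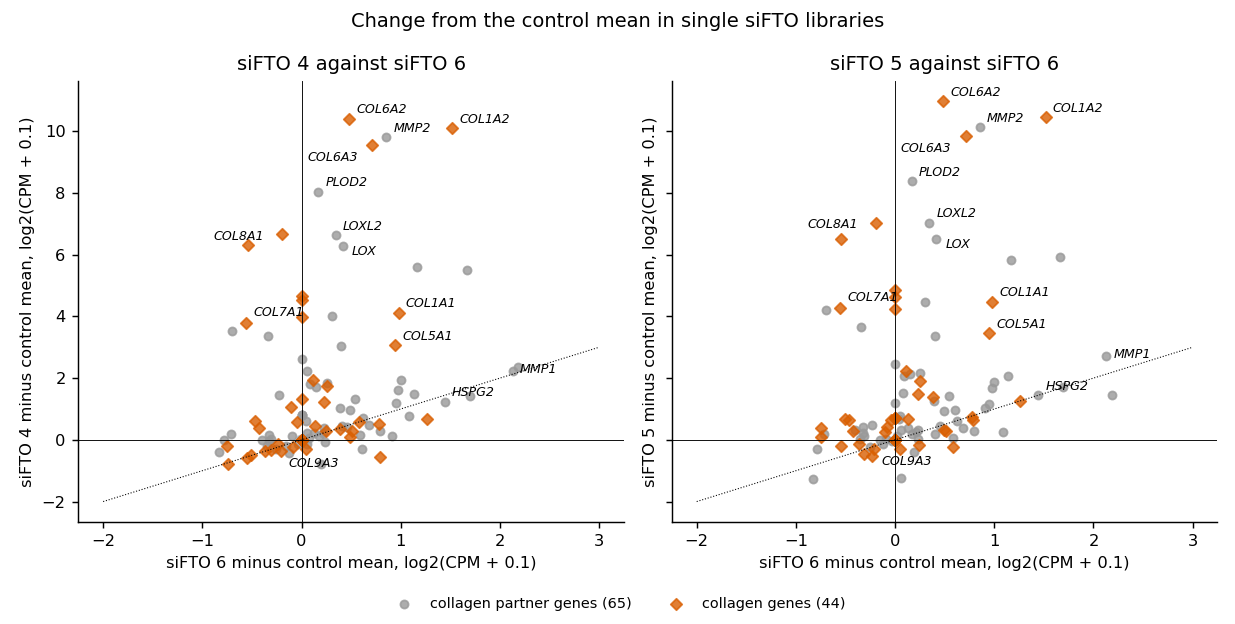
Difference from the mean of the 3 controls on the log2(CPM + 0.1) scale in siFTO 6 (horizontal axis) against siFTO 4 (left) and siFTO 5 (right) for the 44 collagen genes (orange) and 65 genes that act on collagen (grey), with a dotted line where both are equal. COL6A2, COL1A2 and COL6A3 stand near 10 on the vertical axis, COL1A1 and COL5A1 are near 1 on the horizontal axis, and HSPG2 lies close to the dotted line.

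Genes whose products act on collagen moved in part with it. Of 65 such genes in 6 lists, 60 were tested, of which 23 were higher (38.3%, against 14.1% of all genes tested) and 3 lower (5.00%, against 11.5%) in siFTO and 34 did not pass in edgeR. Both siFTO 4 and siFTO 5 exceeded the other libraries in 29 of them (48.3%, against 22.3% of all genes tested), by at least 4-fold in 11 (18.3%, against 4.24%). Of the 11, PLOD2, ADAMTS3 and ITGA1 had 4, 0 and 4 counts over the other 4 libraries, and NID1, among the 29, had 3. These genes passed the minimum only with the counts of siFTO 4 and 5. Among all genes with at least 10 counts over the other 4 libraries, the 2 shares were 18.3% and 1.07%. Like the members, the lists were set with earlier results of these data known, so these counts are a description.

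Genes of chain modification and folding, which are enzymes, chaperones, export factors and a transcription factor, had 6 of 21 tested higher and 1 lower (28.6% and 4.76%, against 14.1% and 11.5% of all genes tested), with a median log2 fold change of 0.10. PLOD2, the lysyl hydroxylase of collagen telopeptides, stood at 0.0910, 0 and 0.101 CPM in the controls and at 41.0, 52.0 and 0.0760 CPM in siFTO 4, 5 and 6 (adjusted p = 0.0170 in edgeR). CREB3L1, a transcription factor known to drive collagen genes, stood at 3.18, 2.41 and 2.36 CPM in the controls and at 28.1, 33.9 and 2.05 CPM in siFTO 4, 5 and 6 (2.90 ± 0.80, adjusted p = 0.0335). P4HA2, a prolyl hydroxylase, was higher in each siFTO library, at 79.7, 85.4 and 46.5 CPM with controls of 31.2 to 33.2 CPM (1.02 ± 0.20, adjusted p = 0.0119). P3H2, a prolyl 3-hydroxylase, also rose in each, at 5.17, 5.41 and 3.27 CPM against 1.06 to 2.55 CPM (adjusted p = 0.0306), and P3H4 fell by 0.39 on the log2 scale (70.5, 74.1 and 72.9 CPM against 84.7 to 91.3 CPM, adjusted p = 0.00988). COLGALT2, which adds galactose, stood at 1.03, 0.318 and 0.152 CPM in siFTO 4, 5 and 6, with controls of 0 to 0.309 CPM, and did not pass.

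Cleavage and cross-linking genes had 5 of 12 tested higher and 0 lower (41.7% higher, against 14.1% of all genes, and 11.5% of all genes lower). These counts were 6 and 0 at an unadjusted p, 5 and 0 in DESeq2 and 0 and 0 in limma voom. LOXL2, a lysyl oxidase that cross-links collagen, stood at 0.910, 1.05 and 0.704 CPM in the controls and at 96.8, 128 and 1.14 CPM in siFTO 4, 5 and 6 (6.29 ± 1.40, adjusted p = 0.0167 in edgeR). LOX itself stood at 0.182, 0.556 and 0.151 CPM in the controls and at 27.9, 32.3 and 0.380 CPM in siFTO 4, 5 and 6 (5.91 ± 1.36, adjusted p = 0.0186). Both enzymes were thus high in the libraries that held both type I chains. LOXL1 (3.51 ± 0.89, adjusted p = 0.0252) and PCOLCE2, an enhancer of propeptide cleavage (1.51 ± 0.42, adjusted p = 0.0354), were also higher. LOXL1 stood at 22.9, 31.3 and 1.67 CPM in siFTO 4, 5 and 6 with controls of 0.728 to 2.04 CPM, and PCOLCE2 at 13.9, 17.3 and 4.56 CPM with controls of 3.46 to 4.22 CPM.

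Collagen receptors had 4 of 10 tested higher and 0 lower (40% higher, against 14.1% of all genes, and 11.5% of all genes lower). Their counts were 5 and 0 at an unadjusted p, 4 and 0 in DESeq2 and 2 and 0 in limma voom. DDR2, a receptor kinase for fibrillar collagen, stood at 0.273, 0.185 and 0.302 CPM in the controls and at 16.7, 19.9 and 0.684 CPM in siFTO 4, 5 and 6 (5.44 ± 1.12, adjusted p = 0.0132 in edgeR). Among integrin subunits, ITGB1, ITGA2 and ITGA10 were higher, with all 3 siFTO libraries above all controls. ITGB1 stood at 398, 389 and 285 CPM in siFTO 4, 5 and 6 and controls held 173 to 228 CPM (0.68 ± 0.14, adjusted p = 0.0130), and ITGA2 at 48.4, 45.2 and 45.7 CPM against 26.6 to 32.8 CPM (0.52 ± 0.09, adjusted p = 0.00698). ITGA10 stood at 1.26, 1.21 and 0.608 CPM against 0.182 to 0.453 CPM (1.68 ± 0.50, adjusted p = 0.0422), and ITGA1 at 1.77, 2.93 and 0 CPM against 0 to 0.185 CPM, which did not pass (adjusted p = 0.0565).

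Degradation genes and their inhibitors had 6 of 9 tested higher and 0 lower (66.7% higher, against 14.1% of all genes, and 11.5% of all genes lower). The counts were 7 and 0 at an unadjusted p, 6 and 0 in DESeq2 and 3 and 0 in limma voom. The degrading enzymes made up 5 of the 6, of 5 tested, and the inhibitor TIMP2 the other, of 4 TIMP genes tested (0.38 ± 0.10, adjusted p = 0.0244 in edgeR). MMP2, a gelatinase, stood at 0.273, 0.185 and 0.302 CPM in the controls and at 313, 389 and 0.532 CPM in siFTO 4, 5 and 6 (9.67 ± 2.06, adjusted p = 0.0145 in edgeR). Its membrane-bound activator MMP14 stood at 251, 303 and 76.2 CPM against 65.3 to 75.9 CPM (1.42 ± 0.41, adjusted p = 0.0397), and the collagen-cleaving cathepsin CTSK at 27.2, 33.6 and 4.25 CPM against 3.18 to 3.22 CPM (2.63 ± 0.63, adjusted p = 0.0206). On library totals, every siFTO library lay above every control in all 5 enzymes, though by little for siFTO 6 in MMP2, CTSK and MMP14. For MMP14, siFTO 6 stood level with the highest control (76.2 and 75.9 CPM), and their order reverses with TMM scaling. MMP1, an interstitial collagenase, stood at 3.84, 5.41 and 3.57 CPM against 0.503 to 1.42 CPM (2.22 ± 0.43, adjusted p = 0.0112), and the collagenase MMP13 at 1.40, 0.700 and 1.22 CPM against 0.182 to 0.201 CPM (2.35 ± 0.45, adjusted p = 0.0105).

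Basement membrane partners had 2 of 5 higher and 1 lower (40% and 20%, against 14.1% and 11.5% of all genes tested). HSPG2, the proteoglycan perlecan, stood at 56.0, 33.9 and 59.4 CPM in the controls and at 114, 131 and 132 CPM in siFTO 4, 5 and 6 (1.22 ± 0.18, adjusted p = 0.00486 in edgeR). NID2, a nidogen that links laminin to type IV collagen, stood at 0.273, 0.0618 and 0.151 CPM in the controls and at 11.2, 14.8 and 0.684 CPM in siFTO 4, 5 and 6 (5.69 ± 1.12, adjusted p = 0.0116). HSPG2 thus did not share the gap between siFTO 6 and the other siFTO libraries, while NID2 did. AGRN fell by 0.34 on the log2 scale (adjusted p = 0.0390), at 417, 510 and 510 CPM in siFTO 4, 5 and 6 against 523 to 584 CPM. NID1 and PXDN did not pass, with at most 0.382 and 0.637 CPM in a library. Fibril-associated proteoglycans had 0 of 3 tested higher (against 14.1% of all genes, 0 at an unadjusted p, and 0 in DESeq2 and limma voom) and 1 lower (against 11.5%), BGN, at 1.48, 0.764 and 1.06 CPM against 1.91 to 2.09 CPM (-0.97 ± 0.30, adjusted p = 0.0488), while OGN and ASPN had at most 0.0738 and 0.127 CPM. This list leaves out the fibril proteoglycans DCN and LUM, which were placed among the fibroblast markers. Both had 0 counts in the controls. DCN had 14, 15 and 0 counts and LUM 20, 22 and 0 in siFTO 4, 5 and 6, and neither passed (adjusted p of 0.0576 and 0.0505 in edgeR).

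Markers of other cell types were read beside the collagens. The 11 fibroblast markers summed to 4.94 to 8.28 CPM in the controls and to 23.7, 23.4 and 5.47 CPM in siFTO 4, 5 and 6, and 5, 4 and 2 of them reached 1 CPM in these 3 libraries against 1 in each control. PDPN had 0 counts in the controls and 109, 130 and 0 in siFTO 4, 5 and 6, and FAP 0 in the controls and 64, 81 and 4. LUM (20, 22 and 0 counts) and DCN (14, 15 and 0) also had none in the controls, whereas PDGFRA, THY1, DPT, CXCL12 and MFAP5 had at most 2 counts in a library. PDGFRB, which gave most of the control sum, did not follow. It stood at 7.46, 4.39 and 4.83 CPM in the controls and at 7.23, 6.94 and 3.65 CPM in siFTO 4, 5 and 6 (adjusted p = 0.979 in edgeR). FBLN1 stood at 0.494 to 0.819 CPM in the controls and at 0.960, 0.573 and 1.44 CPM in siFTO 4, 5 and 6 (adjusted p = 0.378). Leukocyte markers summed to 3.52 to 5.46 CPM in the controls and to 85.9, 108 and 6.84 CPM in siFTO 4, 5 and 6, with CD74 and HLA-DRA giving nearly all of it in siFTO 4 and 5 and CD14 most of it in the other 4 libraries, while PTPRC and CD3E, which define leukocytes and T cells, had at most 1 count in a library. Endothelial markers summed to 0.637 to 1.11 CPM in the controls and to 3.10, 2.99 and 0.988 CPM in siFTO 4, 5 and 6, with CDH5 and EMCN at 1 count or none, KDR at 0 counts in the controls and 19, 14 and 0 in siFTO 4, 5 and 6, and PECAM1 at 2 to 7 counts in the controls and 15, 18 and 5. Smooth muscle markers summed to 62.0 to 82.6 CPM in the controls and to 74.9, 77.9 and 79.5 CPM in siFTO 4, 5 and 6, with DES, at 37.6 to 60.3 CPM, the largest part. Of 8 tested, CNN1 and NOTCH3 were higher in siFTO (against 14.1% of all genes) and 0 were lower (against 11.5%). CNN1 had 0 counts in the controls and 18, 39 and 1 in siFTO 4, 5 and 6. NOTCH3 stood at 12.6 to 15.5 CPM in the controls and at 21.8, 23.2 and 22.5 CPM in siFTO 4, 5 and 6. Epithelial markers summed to 8977 to 10880 CPM in the controls and to 8659, 8800 and 10940 CPM in siFTO 4, 5 and 6, with KRT8 giving most of each sum. Of 10 tested, CLDN7 and ESRP1 were lower in siFTO (against 11.5% of all genes) and 0 were higher (against 14.1%). Urothelial markers summed to 152 to 195 CPM in the controls and to 162, 147 and 180 CPM in siFTO 4, 5 and 6. What part these markers have in the collagen values was not tested.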

How the data were processed

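RNA-seq of 253J cells was analysed from 3 control and 3 siFTO libraries, grouped by their labels. The authors deposited raw counts of reads per gene, 1 file per library, with no normalization. Alignment with TopHat2 2.0.11, counting with HTSeq and hg19/GRCh37 as the build are named in the processing notes of the submitters. Not given in the sources used here are the HTSeq version, the annotation release and whether strand was used. Gene IDs, matched without their version, took names, coordinates and lengths from GENCODE 29 on GRCh38 (56753 of 60483 matched), which leaves the authors' build unsettled, and the coordinates printed are those of GRCh38. Promoter sequences came from RefSeq (GRCh38.p14). Mitochondrial genes were listed at 0.

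CPM were computed on library totals (10991789 to 19891269 counts). Genes with at least 10 counts summed over the 6 libraries were tested with edgeR 4.0.16 in R 4.3.3 (TMM scaling, quasi-likelihood test, group as the only term, two-sided, Benjamini-Hochberg adjustment over 20677 genes, threshold 0.05). This minimum was used because filterByExpr asks for counts in 3 libraries and so removes genes present in 2. Standard errors are the log2 fold change over the square root of F. Fitted fold changes of genes near 0 in the controls depend on the prior count, so counts are given for them. The alternatives were other scalings and filters, DESeq2 1.42.0, limma voom 3.58.1, leaving out each library or siFTO 4 and 5, and other class boundaries, and transcript length in place of exon length was chosen after seeing the data.

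Every member with at least 1 CPM in a library is given by library. Of each list of partner genes, up to 4 called genes in each direction with the largest log2 fold change are named, and up to 3 with the largest difference between siFTO 4 and siFTO 6, and for marker lists not all of these are printed. The members, classes, lists and this rule were chosen with earlier results of these data known. Simulated data were 10 draws from the means of these libraries, 3 against 3, with a median of 20151 genes tested. On them the test recovered 33.9% of genes changed by 1.5-fold, 72.2% by 2-fold and 98.9% by 4-fold. Of 1491 calls, 8.52% were false, above the nominal share. The shares recovered were not split by count level or by how many siFTO libraries changed. Recovery of members with few counts, or of changes confined to part of the siFTO libraries, was thus not tested.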

Additional observations from a re-analysis of the deposited data

How the results depend on the processing

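No paired analysis was possible because the replicate numbers 1 to 3 and 4 to 6 are not shared between the groups. With 1 library left out, the collagen genes called higher ranged from 0 to 16 and those called lower from 0 to 2, all genes called higher from 645 to 4088 and lower from 662 to 2955, and the basement membrane median log2 fold change from 0.22 to 0.89. COL9A2 then ranged from -0.33 to 0.24, COL4A4 from -1.40 to 0.21, COL4A3 from -0.13 to 0.56 and COL26A1 from -0.26 to 0.21, none of which passed. On library totals alone, 1 member and 1514 genes were lower, COL9A2 stood at 0.037 and COL26A1 at 0.12, and the median of all genes rose to 0.16 from 0.03. COL26A1 was 0.0032 with no filter, 0.014 with filterByExpr, 0.023 with at least 10 counts in every library and 0.054 in limma voom. With filterByExpr 6 of 19 members tested were higher, against 2913 of 14965 genes. With at least 10 counts in every library they were 6 of 16, against 2802 of 13595 genes, and the basement membrane median was -0.39. In limma voom 0 members and 1903 genes were higher, and the cause was not tested. Without siFTO 4 and 5, which leaves 1 siFTO library, 2 members were higher and 0 lower (926 and 786 of all genes), the medians were 0.13 for fibrillar, -0.48 for basement membrane and -0.10 for other collagens, and COL16A1 stood at -0.0092, COL7A1 at -0.70, COL26A1 at 0.15, COL27A1 at -0.16 and COL13A1 at -0.61. With COL7A1, COL15A1 and COL18A1 moved to the type IV class, the log2 gap of siFTO 4 and 5 over the other libraries was 1.86 for that class and 1.04 for other collagens, and the latter was 1.09 with TMM-scaled CPM, against 1.18. DESeq2-type and upper-quartile size factors called the same 13 and 2 members. Transcript length in place of exon length moved the per-kb ratios of COL1A1 to COL1A2 from 1.42 and 1.43 to 1.01 and 1.02, and the others kept their side of 1.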
